A study of Mus musculus with 6 samples.

Results

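Genes of the major histocompatibility complex (MHC) and of antigen processing were followed in 6 microarrays of sorted cells from the bone marrow of mice with leukemia. The set was chosen by name: every gene with a symbol that starts with H2-, together with B2m, Cd74, Ciita, Nlrc5, Tap1, Tap2, Tapbp, Tapbpl, Psmb8, Psmb9, Psmb10, Erap1, Cd1d1 and Mr1. The array annotation held 58 such symbols. Of these, 47 had a probe set of their own, among 22180 genes measured in that way, and 11 were held only by probe sets shared with another symbol, whose values are given apart. The first group was 3 arrays from mice with acute myeloid leukemia (AML) and the second was 3 arrays from mice with chronic myeloid leukemia (CML). All 6 samples carry the Col2.3 GFP genotype, a transgene known to put green fluorescent protein under a piece of the type I collagen promoter active in bone-forming cells. The labels call the sorted cells osteoblastic, whereas the titles call them stromal. The titles assign 3 samples to each leukemia while the source names give CML for all 6, so each direction below rests on the titles. How the leukemias were made, the strain, the age and whether each sample came from its own mouse were left unstated by the labels. The p-values therefore reflect only how far these samples differ from each other, and part of that spread may be technical. Arrays of mice without leukemia were not analysed here.

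MHC class I molecules pair a heavy chain with the light chain beta-2-microglobulin, encoded by B2m, and show peptides from inside the cell on nearly all nucleated cells. The proteasome cuts those peptides, the TAP transporter carries them into the endoplasmic reticulum, and tapasin and an aminopeptidase help to load and trim them. MHC class II molecules pair an alpha with a beta chain, are carried through the cell by the invariant chain CD74, and are made mainly by B cells, dendritic cells and macrophages, with less in stromal cells. NLRC5 is the coactivator of class I genes and CIITA that of class II genes.

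Values are log2 of the deposited intensity, and a change is the AML mean minus the CML mean on that scale. The array medians lay between 4.11 and 4.35, and of the 47 genes 32 had a mean level above the mean of these medians and 15 below it. Genes of the labelled lineage were present: the intensities of 7 osteoblast markers, Col1a1 among them, summed to between 1254 and 4637 on the AML arrays and between 2611 and 12169 on the CML arrays, and 0 of the 7 passed in limma, adjusted or not. All 7 had a change below 0, with a median of -1.12, against -0.11 for all genes, and overlapping groups. Intensities of 8 pan-leukocyte markers summed to between 5077 and 8529 on the AML arrays and between 965 and 3215 on the CML arrays. Of the 8, 2 passed in limma as higher in AML, against 1.83% of all genes. All 8 passed unadjusted as higher, against 12.6% of all genes. Their median change was 1.90. In 6 of the 8 AML lay above CML without overlap, against 13.3% of all genes. In such bulk samples, fewer cells of a type and less RNA per cell cannot be told apart.

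Of the 47 genes, 2 passed the threshold of 0.05 on limma's adjusted p: H2-DMa, a chain of the class II peptide editor, and Psmb10, a catalytic subunit of the immunoproteasome. Both were higher in AML. They are 4.26% of the 47 genes, and 1.91% of all genes tested were called (1.83% as higher in AML and 0.0812% as lower). At an unadjusted p under 0.05 there were 9 of the 47 genes (19.1%), against 21.5% of all genes. Of these 6 were higher and 3 lower in AML, against 12.6% and 8.99% of all genes. The AML and CML arrays did not overlap for 14 of the 47 genes (29.8%), against 31.3% of all genes. In 7 (14.9%) AML lay above CML and in 7 (14.9%) below, against 13.3% and 17.9% of all genes. The median change of the 47 genes was -0.08, against -0.11 for all genes. The unadjusted and the overlap shares were near those of the whole array.

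**Figure D1:**
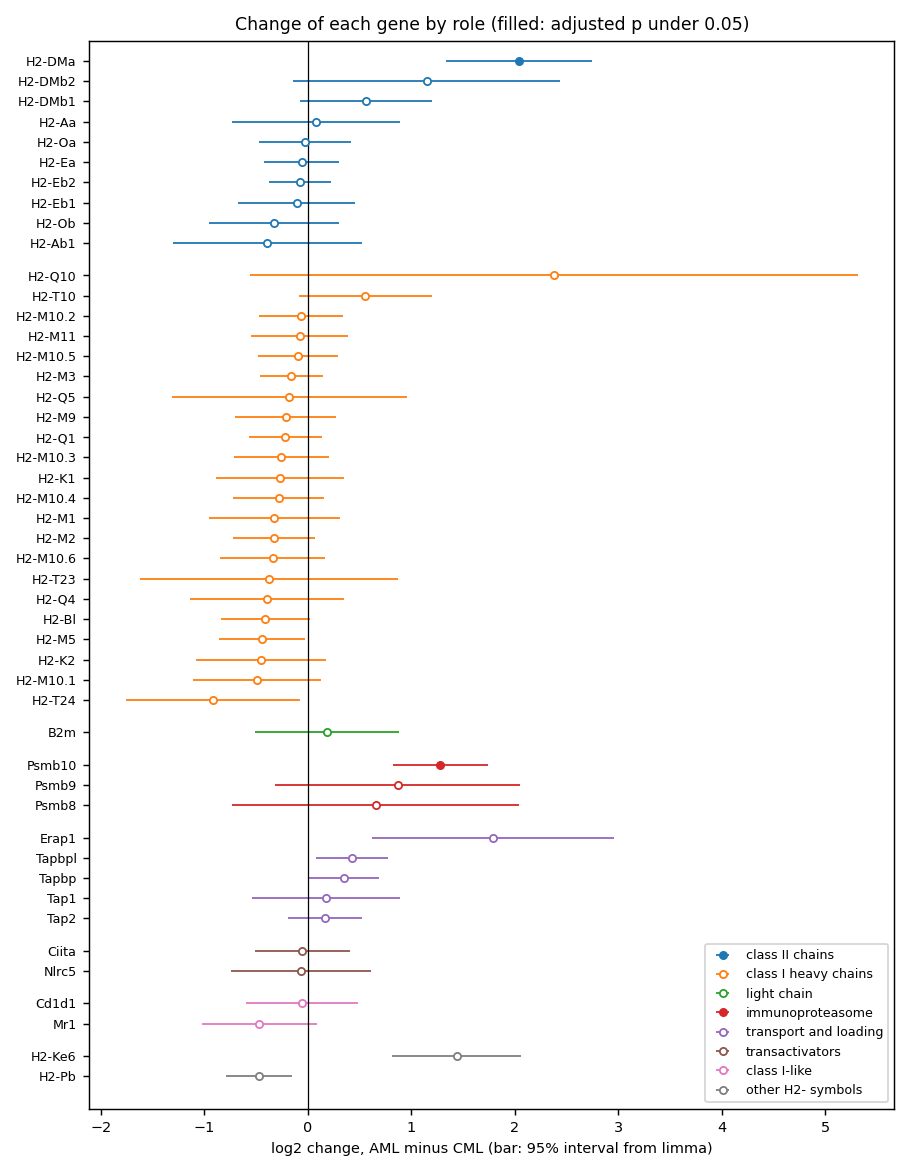
Log2 change of each of the 47 genes, AML minus CML, grouped by role. Points are limma estimates, bars are 95% intervals, and the filled points, H2-DMa and Psmb10, had an adjusted p under 0.05.

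Of the 10 class II chain genes 1 passed, H2-DMa, and 9 did not. H2-DMa (probe set 17336407, chromosome 17) encodes the alpha chain of H2-DM, which removes the invariant chain fragment from class II molecules so that other peptides can bind. Its log2 intensity was 7.59, 7.82 and 6.87 on AML 1, 2 and 3, against 5.01, 5.48 and 5.66 on CML 1, 2 and 3. Every AML array lay above every CML array, by more than 1 log2 unit. The change was 2.04 ± 0.29 (SE, n = 3 each; limma adjusted p = 0.0339), a 4.12-fold higher level in AML with a 95% interval from 2.53 to 6.70. With 1 array left out the change ran from 1.84 to 2.32, and the call held in 1 of 6 such fits, the fit without AML 3 (limma adjusted p from 0.0275 to 0.145). In 3 of these fits, without CML 3, AML 1 or AML 2, limma called 0 of all 22180 genes. It was also lost after quantile normalization and cyclic loess (limma adjusted p = 0.0771 and 0.0874), at changes of 1.89 and 1.81.

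The beta chains that pair with H2-DMa were higher in AML by value without passing. H2-DMb1 stood at 4.51, 3.68 and 3.83 on the AML arrays, against 3.62, 3.10 and 3.61 on the CML arrays. These groups did not overlap, but the smallest gap was narrow and most values were below the array medians (change 0.56 ± 0.27 SE, limma adjusted p = 0.268). H2-DMb2 stood at 4.94, 5.72 and 4.12 on the AML arrays, against 4.74, 3.10 and 3.50 on the CML arrays, and the groups overlapped (1.15 ± 0.54 SE, adjusted p = 0.266). H2-O, the inhibitor of H2-DM, showed no call in either chain, with changes of -0.03 for H2-Oa and -0.33 for H2-Ob. Under all 3 other scalings H2-Oa turned to a value above 0.

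The chains that present peptide gave smaller changes, with groups that overlapped for all 5. H2-Ab1, the beta chain of I-A, stood at 6.96, 6.23 and 5.97 on the AML arrays, against 7.33, 6.10 and 6.90 on the CML arrays. The highest value was on CML 1 and the lowest on AML 3 (change -0.39, 95% interval from -1.30 to 0.52; limma adjusted p = 0.533). Its partner H2-Aa, the alpha chain, stood at 4.56, 4.41 and 4.65 on the AML arrays, against 4.02, 4.10 and 5.27 on the CML arrays. The change of H2-Aa was 0.08, with CML 3 above all other arrays (limma adjusted p = 0.896). H2-Eb1, the beta chain of I-E, stood at 4.30, 4.28 and 4.12 on the AML arrays and at 4.04, 4.13 and 4.85 on the CML arrays, with a change of -0.11 that turned to a value above 0 under all 3 other scalings. H2-Eb2 and H2-Ea lay below every array median, with changes of -0.07 and -0.06 and the same turn of sign. H2-Ea is a transcribed pseudogene in RefSeq.

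Cd74 was read by 1 probe set that also carries the symbol of a microRNA gene, so its signal cannot be given to Cd74 alone. That probe set stood at 6.61, 6.82 and 6.65 on the AML arrays, against 7.68, 6.22 and 7.66 on the CML arrays, and CML 2 was the lowest of the 6. Its change was -0.49 ± 0.41 (SE; limma adjusted p = 0.505 over all probe sets). The CML arrays also differed in B lineage markers, which encode receptors and factors of that lineage. Intensities of 9 B lineage markers summed to 225, 403 and 192 on the AML arrays, against 2939, 184 and 563 on the CML arrays. All 9 had a change below 0, against 61.7% of all genes, and none was listed at an intensity of 0. In limma 0 passed and 1 passed unadjusted, as lower, against 8.99% of all genes. CML 1, highest in these markers, was also highest in H2-Ab1 and in the Cd74 probe set, but lowest of the 6 arrays in H2-Aa and H2-Eb1. CML 3 was highest in H2-Aa and H2-Eb1 and stood close to CML 1 in the Cd74 probe set. The part of B lineage cells in the class II values was not tested.

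**Figure D2:**
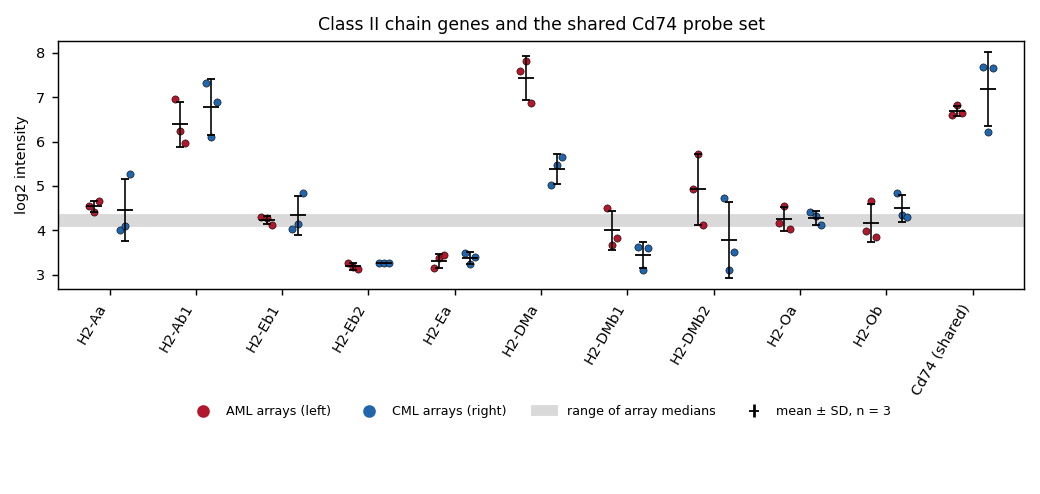
Log2 intensity of the 10 class II chain genes and of the shared Cd74 probe set on each array, with AML at the left of each pair, mean ± SD (n = 3) and the range of array medians in grey. H2-DMa is the gene whose 3 AML values stand clear of its 3 CML values by more than 1 unit.

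RefSeq promoter windows, from 250 bases before to 50 after an annotated start (build GRCm38.p6), were at hand for 33 of the 47 genes in 36 windows. Classical class I and class II promoters are known to carry a Y box, the site of NF-Y, with the core letters CCAAT. The windows of genes on which the results turn are printed 5′ to 3′ to show where these letters stand, with matches to any of 3 motifs in capitals. The motifs were CCAAT, the interferon-stimulated response element core (GAAA, any pair of bases, GAAA) and the STAT letters TTCNNNGAA. Each was searched on both strands, and no matches overlap in the printed windows.
H2-DMa, upstream start (chr17:34122582-34122881, plus strand): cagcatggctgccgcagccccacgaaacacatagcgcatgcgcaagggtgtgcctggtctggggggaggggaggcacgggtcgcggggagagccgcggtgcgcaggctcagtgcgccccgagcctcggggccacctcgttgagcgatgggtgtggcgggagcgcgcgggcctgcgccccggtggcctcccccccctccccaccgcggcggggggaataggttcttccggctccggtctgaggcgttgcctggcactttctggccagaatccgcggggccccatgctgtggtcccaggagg
H2-DMa, downstream start (chr17:34125268-34125567, plus strand): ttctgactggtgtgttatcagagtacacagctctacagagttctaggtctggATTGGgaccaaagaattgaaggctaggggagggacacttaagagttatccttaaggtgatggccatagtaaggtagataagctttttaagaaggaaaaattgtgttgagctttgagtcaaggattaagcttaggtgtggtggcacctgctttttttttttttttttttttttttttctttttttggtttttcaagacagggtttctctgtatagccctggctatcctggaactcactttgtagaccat
H2-Aa (chr17:34287774-34288073, minus strand): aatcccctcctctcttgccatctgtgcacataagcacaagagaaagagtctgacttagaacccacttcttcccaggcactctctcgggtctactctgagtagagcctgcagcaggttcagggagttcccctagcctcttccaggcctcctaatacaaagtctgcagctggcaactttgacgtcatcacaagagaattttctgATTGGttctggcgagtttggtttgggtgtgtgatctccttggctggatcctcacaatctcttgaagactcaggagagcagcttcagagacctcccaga
B2m (chr2:122147437-122147736, plus strand): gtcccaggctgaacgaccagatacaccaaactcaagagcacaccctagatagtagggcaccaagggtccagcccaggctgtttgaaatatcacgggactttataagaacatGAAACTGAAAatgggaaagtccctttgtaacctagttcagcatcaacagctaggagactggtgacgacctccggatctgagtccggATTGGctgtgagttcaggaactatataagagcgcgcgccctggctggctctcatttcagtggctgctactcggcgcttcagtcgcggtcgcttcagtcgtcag
Psmb9 (chr17:34187281-34187580, minus strand): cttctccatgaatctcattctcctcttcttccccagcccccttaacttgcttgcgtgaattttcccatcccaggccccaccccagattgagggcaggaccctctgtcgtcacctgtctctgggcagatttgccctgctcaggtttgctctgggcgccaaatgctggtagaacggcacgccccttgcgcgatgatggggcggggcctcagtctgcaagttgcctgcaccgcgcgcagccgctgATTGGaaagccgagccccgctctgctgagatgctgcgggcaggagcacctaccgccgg
Psmb10 (chr8:105938343-105938642, minus strand): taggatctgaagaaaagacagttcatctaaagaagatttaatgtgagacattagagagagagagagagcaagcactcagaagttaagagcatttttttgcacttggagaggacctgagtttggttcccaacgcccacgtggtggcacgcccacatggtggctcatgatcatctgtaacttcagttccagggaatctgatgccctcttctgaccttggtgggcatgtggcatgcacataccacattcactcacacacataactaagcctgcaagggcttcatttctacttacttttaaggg
H2-Aa and B2m, which did not pass, hold ATTGG, the reverse complement of CCAAT, at 48 and 53 bases before the start. Of the H2-DMa windows the upstream window holds no match to any of the 3 motifs and the downstream window holds ATTGG at 198 bases before the start. Which H2-DMa start these cells use was not tested. A start outside these windows was not searched, so they do not show whether H2-DMa lacks a Y box. The Psmb10 window holds no match. The Psmb9 window holds ATTGG at 8 bases before the start and shares 275 of its 300 bases with the window of Tap1, which runs the other way. CCAAT was found in 8 of 9 class II windows (88.9%), in 16 of 18 class I windows (88.9%) and in 5 of 9 windows of the remaining genes (55.6%), against 37.4% of all 32851 mouse windows. Many of the class I windows belong to closely related H2-M10 copies and are not independent. H2-K1 and H2-M9 each have 2 overlapping windows. The match of Psmb9 and that of Tap1 are the same site, counted in both windows. By gene, CCAAT was found in 14 of 16 class I genes and in 8 of 8 class II genes with a window. The interferon-stimulated response element core was found in 3 of the 36 windows, those of B2m, Erap1 and H2-T23, against 3.44% of all windows. TTCNNNGAA was found in 4, against 8.30% of all windows. These matches describe the letters only and are not sites shown to be bound.

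Class I heavy chain genes had no call, and most had a change below 0. Of 22 such genes 0 passed in limma and 2 passed unadjusted, both lower, against 8.99% of all genes. A change below 0 was seen in 20 (90.9%, against 61.7% of all genes). The median change was -0.27, against -0.11 for all genes. Median centring moved the median of all genes to 0.04, and under the 3 other scalings 17 of the 22 were below 0, with medians from -0.19 to -0.13. Of all genes, from 45% to 53.8% were below 0 under these scalings. Without CML 1 the class I median was -0.16. Dim signals limit this count, since 11 of the 22 had a mean level below that of the array medians. The 22 were counted by symbol and include H2-K2, H2-Bl, H2-Q5 and H2-T10, which are transcribed pseudogenes in RefSeq.

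H2-K1 (probe set 17343710, chromosome 17), the classical heavy chain K, stood at 7.51, 7.95 and 7.36 on the AML arrays, against 8.24, 7.95 and 7.44 on the CML arrays. The groups overlapped and CML 1 was the highest (change -0.27, 95% interval from -0.88 to 0.35; limma adjusted p = 0.530). H2-D1, the other classical heavy chain, shares its probe set with H2-Q2, so the signal cannot be given to H2-D1 alone. This probe set stood between 4.55 and 4.73 on the AML arrays and between 4.52 and 4.84 on the CML arrays, not far above the array medians. How well it reads H2-D1 was not tested. B2m, the light chain of class I, stood at 11.52, 11.84 and 11.41 on the AML arrays, against 11.72, 10.77 and 11.71 on the CML arrays. CML 2 was the lowest array, and the change of B2m was 0.19 with a 95% interval from -0.51 to 0.88 (limma adjusted p = 0.698); under 1 of the 3 other scalings its sign turned. Sizes near the 4.12-fold difference of H2-DMa lie outside the intervals of both H2-K1 and B2m.

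Among the nonclassical genes, H2-T23 encodes Qa-1, which shows leader peptides of other class I chains to receptors of natural killer cells. It stood at 5.46, 6.11 and 5.01 on the AML arrays, against 4.80, 6.70 and 6.21 on the CML arrays, so the spread within each group was larger than the change of -0.37 (limma adjusted p = 0.662). H2-T24 gave the largest negative change of the 47 genes, at -0.92 ± 0.35 (SE; limma adjusted p = 0.208). It stood at 5.59, 5.57 and 6.01 on the AML arrays, against 5.87, 7.22 and 6.84 on the CML arrays, and CML 1 lay among the AML values. Without CML 1 its change was -1.30 (limma adjusted p = 0.0530). H2-T10, a transcribed pseudogene in RefSeq, was 0.55 higher by value with overlapping groups. H2-Bl and H2-Q1 did not overlap, at changes of -0.41 and -0.22, and H2-K2 overlapped at -0.45, all without passing. The shared probe sets of H2-T22 with H2-T9 and of H2-T3 with H2-T18 had changes of 0.08 and -0.21 and overlapped.

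H2-Q10, known as a secreted class I chain of the liver, gave the largest change by value and also the widest spread. The brighter probe set stood at 10.49, 7.57 and 8.02 on the AML arrays, against 7.88, 3.77 and 7.30 on the CML arrays (2.38 ± 1.23 SE; limma adjusted p = 0.295). Its second probe set stood between 4.58 and 4.97 on the AML arrays and between 4.90 and 5.24 on the CML arrays, with a change of -0.31, so the probe sets disagree in sign. H2-Q4 and H2-Q5 also had second probe sets, with changes of -0.06 against -0.40 for H2-Q4 and 0.06 against -0.18 for H2-Q5. The Q genes held by shared probe sets gave no call: those of H2-Q7, H2-Q8 and H2-Q9 had changes of -0.20 and -0.12, and that of H2-Q6 and H2-Q8 had 0.20. Q genes are near-identical copies, and their probe sets may read each other's transcripts. The 12 H2-M genes all had changes below 0, from -0.49 for H2-M10.1 to -0.07 for H2-M10.2. The signs of H2-M10.2, H2-M10.5 and H2-M11 turned under all 3 other scalings. H2-M3, which presents formylated bacterial peptides, stood at 4.66, 4.69 and 4.63 on the AML arrays, against 4.80, 4.76 and 4.91 on the CML arrays, without overlap at a change of only -0.16. H2-M5 stood at 4.38, 4.17 and 4.10 on the AML arrays, against 4.47, 4.59 and 4.92 on the CML arrays (-0.44 ± 0.17 SE; limma adjusted p = 0.211).

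**Figure D3:**
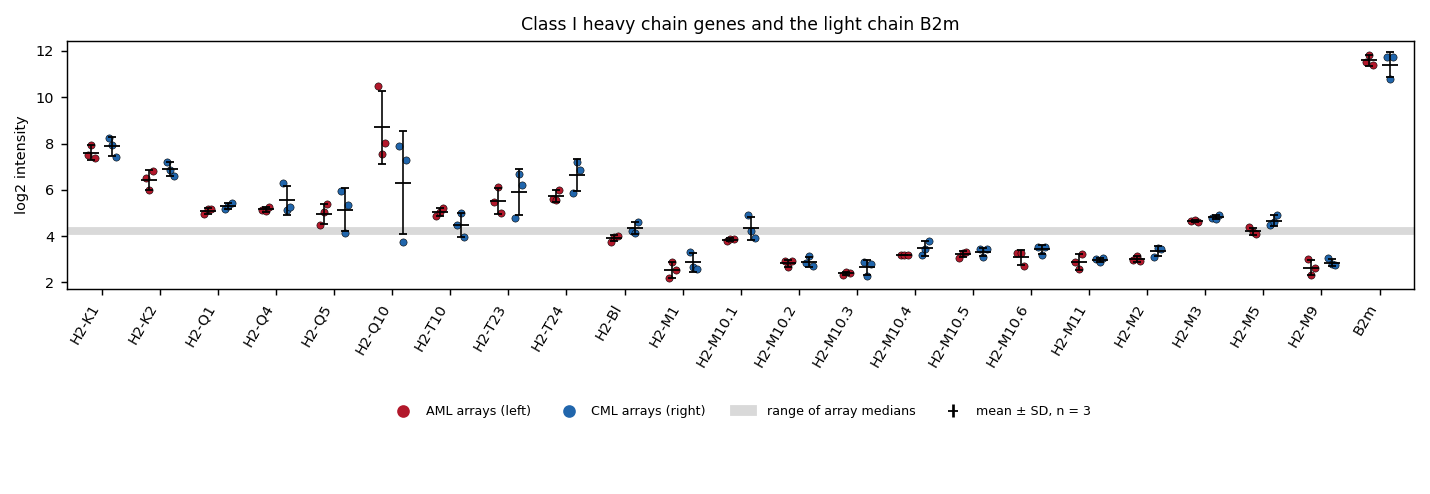
Log2 intensity of the 22 class I heavy chain genes and of B2m on each array, with AML at the left of each pair, mean ± SD (n = 3) and the range of array medians in grey. Most H2-M genes sit under the grey band, and H2-Q10 spreads from 3.77 on CML 2 to 10.49 on AML 1.

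To set class I against class II, each gene's log2 values were centred on their mean over the 6 arrays and averaged per array within each class. The class II score was 0.24, 0.29 and -0.10 on AML 1, 2 and 3, against -0.03, -0.38 and -0.01 on CML 1, 2 and 3, so AML 3 lay within the CML range. The class I score was -0.05, -0.11 and -0.08 on the AML arrays, against 0.19, -0.08 and 0.11 on the CML arrays, and CML 2 lay within the AML range. Class II minus class I was 0.29, 0.39 and -0.03 on the AML arrays, against -0.22, -0.31 and -0.13 on the CML arrays. Its AML mean was 0.22 ± 0.22 and its CML mean -0.22 ± 0.09 (SD, 3 arrays each), and the groups did not overlap, with AML 3 and CML 3 closest. That separation was lost without H2-DMa: class II minus class I was then 0.18, 0.27 and -0.09 on the AML arrays, against -0.07, -0.25 and -0.05 on the CML arrays. AML 3 then lay within the CML range, and the difference of the means was 0.24, against 0.44 with H2-DMa (an alternative chosen after seeing the data). Single class II chains were mixed: their median change was -0.04, and 6 of 10 had a change below 0. Under the 3 other scalings 2 of 10 were below 0 and the median lay between 0.11 and 0.16. The values of all genes moved too: from 45% to 53.8% of them were then below 0, against 61.7% before. The median of all genes then lay between -0.03 and 0.04, against -0.11 before.

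The immunoproteasome subunits were all higher in AML by value, and Psmb10 passed. Immunoproteasome subunits replace the constitutive catalytic subunits of the proteasome after interferon and in blood cells, which favours peptides that fit class I. Psmb10 (probe set 17512554, chromosome 8) stood at 8.12, 8.76 and 8.35 on the AML arrays, against 7.04, 7.18 and 7.18 on the CML arrays. The groups were apart by almost 1 log2 unit and the CML values were close together. Its change was 1.28 ± 0.19 (SE, n = 3 each; limma adjusted p = 0.0359), a 2.43-fold higher level in AML with a 95% interval from 1.77 to 3.33. The call was lost in each of the 6 fits with 1 array left out (limma adjusted p from 0.0547 to 0.131), where the change ran from 1.10 to 1.42. After quantile normalization and cyclic loess it was lost too, at changes of 1.05 and 0.92.

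Psmb9 stood at 9.0, 8.72 and 8.27 on the AML arrays, against 8.75, 6.74 and 7.89 on the CML arrays. Psmb8 stood at 7.59, 7.76 and 6.66 on the AML arrays, against 7.94, 5.80 and 6.31 on the CML arrays. For both genes CML 1 was within or above the AML values and CML 2 was the lowest array. Their changes were 0.87 ± 0.49 and 0.65 ± 0.58 (SE; limma adjusted p = 0.328 and 0.496). The constitutive subunits that immunoproteasome subunits replace, Psmb5, Psmb6 and Psmb7, had changes of 0.60, 0.38 and 0.45 and did not pass. The pan-leukocyte score of the CML arrays stood in the same order, at -0.13, -1.84 and -0.94 on CML 1, 2 and 3, beside immunoproteasome scores of 0.24, -1.10 and -0.54. That order is the order of Psmb8 and Psmb9; Psmb10, the subunit that passed, was lowest on CML 1. On the AML arrays the pan-leukocyte score was 1.24, 1.22 and 0.46, beside immunoproteasome scores of 0.57, 0.74 and 0.09; the part of leukocyte RNA in these values was not tested.

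Transport and loading genes were higher in AML by value in 5 of 5 cases, against 38.3% of all genes. In limma 0 passed the adjusted threshold and 3 passed unadjusted, all higher, against 12.6% of all genes. Erap1, the aminopeptidase that trims peptides in the endoplasmic reticulum, gave the largest of these changes. It stood at 7.05, 6.58 and 6.51 on the AML arrays, against 6.01, 4.76 and 3.99 on the CML arrays, with no overlap and a CML range of 2 log2 units. The change was 1.79 ± 0.49 (SE; limma adjusted p = 0.122), and it passed without CML 1, at 2.33 (limma adjusted p = 0.0400). Tapbpl, a peptide editor related to tapasin, stood at 6.39, 6.39 and 6.32 on the AML arrays, against 5.75, 6.09 and 5.99 on the CML arrays (0.42 ± 0.15 SE; limma adjusted p = 0.177). Tapbp, which encodes tapasin, stood at 7.22, 7.10 and 6.95 on the AML arrays, against 6.64, 6.76 and 6.82 on the CML arrays (0.35 ± 0.14 SE; adjusted p = 0.220). Its second probe set gave -0.26, in the opposite direction, and a probe set shared with Zbtb22 gave 0.15. The transporter subunits overlapped between the groups. Tap1 stood at 6.56, 6.72 and 6.57 on the AML arrays, against 6.70, 5.75 and 6.87 on the CML arrays, with CML 2 alone low. Tap2 stood at 5.68, 5.55 and 5.58 on the AML arrays, against 5.51, 5.57 and 5.23 on the CML arrays. Their changes were 0.17 and 0.17 (95% intervals from -0.54 to 0.89 and from -0.19 to 0.52), and that of Tap1 was below 0 under 2 of the 3 other scalings.

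Neither coactivator gene differed by more than its spread. Ciita stood at 5.38, 5.78 and 5.36 on the AML arrays, against 5.71, 5.29 and 5.69 on the CML arrays, with a change of -0.06 and a 95% interval from -0.52 to 0.41. Nlrc5 stood at 4.43, 4.46 and 4.36 on the AML arrays, against 4.66, 3.85 and 4.95 on the CML arrays, with a change of -0.07 and a 95% interval from -0.75 to 0.61. Both signs turned under at least 1 other scaling. Of the class I-like genes, Cd1d1, which presents lipids to natural killer T cells, had a change of -0.06 with overlapping groups. Mr1, which presents vitamin B metabolites, stood at 4.17, 3.99 and 4.39 on the AML arrays, against 5.11, 4.43 and 4.41 on the CML arrays. The Mr1 groups met almost edge to edge, at AML 3 and CML 3 (-0.47 ± 0.23 SE; limma adjusted p = 0.282).

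Among the H2- symbols counted here in neither class, H2-Ke6 came closest to the threshold. It lies inside the complex but encodes a hydroxysteroid dehydrogenase with no role in presentation. It stood at 7.70, 8.0 and 7.51 on the AML arrays, against 6.83, 5.98 and 6.10 on the CML arrays, without overlap (1.44 ± 0.26 SE; limma adjusted p = 0.0527). It passed after median centring and without CML 1 (limma adjusted p = 0.0322 and 0.0374). H2-Pb, a pseudogene in RefSeq, was set in neither class by its symbol, so the class II counts, median and score leave it out. It was below the array medians at 3.24, 3.32 and 3.08 on the AML arrays, against 3.66, 3.66 and 3.74 on the CML arrays. These groups did not overlap (-0.47 ± 0.13 SE; limma adjusted p = 0.130).

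**Figure D4:**
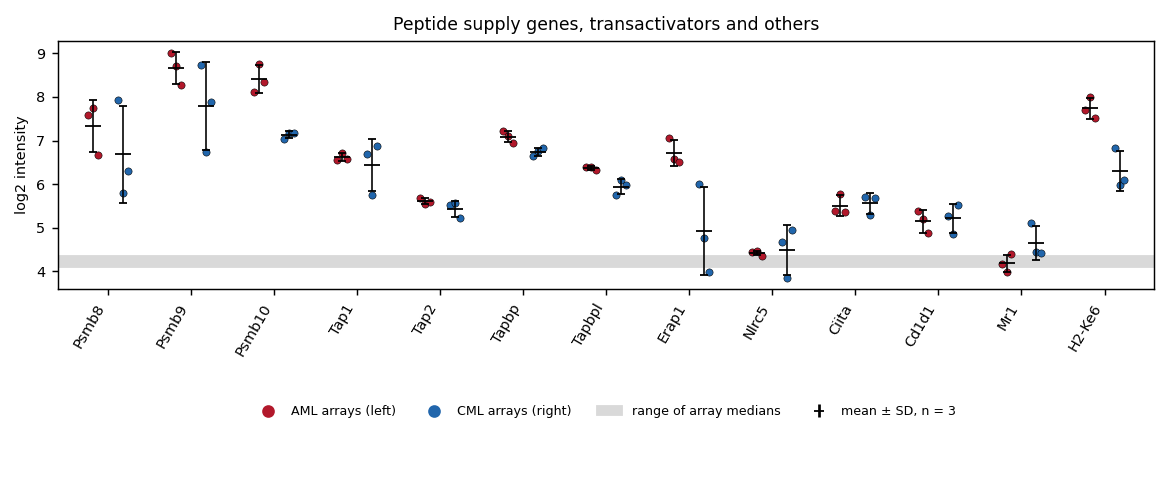
Log2 intensity of the immunoproteasome, transport and loading, coactivator and class I-like genes and of H2-Ke6 on each array, with AML at the left of each pair, mean ± SD (n = 3) and the range of array medians in grey. Psmb10, Erap1, Tapbp, Tapbpl and H2-Ke6 have AML values above all CML values, and CML 2 is low in Psmb8, Psmb9 and Tap1.

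Partner genes of both pathways were mostly higher in AML by value, and 1 passed. A change above 0 was seen in 14 of 18 measured regulators of MHC promoters, against 38.3% of all genes. It was seen in 8 of 9 class II partners and 10 of 11 class I partners. Of the 18 regulators 1 passed in limma, as higher, against 1.83% of all genes. At an unadjusted p under 0.05 there were 5, all higher, against 12.6% of all genes. The regulator that passed, Spi1, which encodes the myeloid factor PU.1, rose by 1.97 ± 0.33 (SE; limma adjusted p = 0.0453). Spi1 stood at 9.07, 9.02 and 8.12 on the AML arrays, against 6.41, 6.66 and 7.25 on the CML arrays, and passed in 1 of 6 fits with 1 array left out. The list's median change was 0.22. Of 9 class II partners 0 passed in limma and 4 passed unadjusted, all higher, against 12.6% of all genes. Their median change was 0.75. The lowest p-values were those of Lamp1, a lysosomal membrane protein, at 1.20 ± 0.22, and of Ifi30, the lysosomal thiol reductase, at 1.15 ± 0.25 (SE; limma adjusted p = 0.0545 and 0.0774). Of 11 class I partners 0 passed in limma and 3 passed unadjusted, all higher, against the same 12.6%, with a median change of 0.50. Sec61a1, the channel of the endoplasmic reticulum membrane, stood at 0.93 ± 0.19 and Psme1, a proteasome activator subunit, at 0.60 ± 0.17 (SE; limma adjusted p = 0.0717 and 0.130).

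Of the 47 genes, 39 lie on chromosome 17. In RefSeq order, 38 of them stand between the outermost H2- genes, among 140 other measured genes. In that stretch 1 of the 38 and 3 of the 140 others passed in limma, all higher in AML. These counts are near the share of all genes, 1.91%, of which 1.83% were higher in AML. The 3 others were Ppp1r11 (1.56), Nrm (1.39) and Lst1 (2.80), a leukocyte gene. The direct neighbours of H2-DMa in that order are Brd2 and H2-DMb2, and the median change was -0.17 for the 38 genes and -0.09 for the 140 others.

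Beside these values, markers of some blood cells differed between the groups, in both directions by value. All 6 granule and myeloid progenitor markers passed in limma as higher in AML, against 1.83% of all genes, with changes from 2.65 to 3.85. Their intensities summed to between 4685 and 10944 on the AML arrays and between 664 and 941 on the CML arrays. Of 12 monocyte and macrophage markers 2 passed as higher, Ccr2 (2.23) and Cd68 (2.80), against the same 1.83%. Of all 12, 7 had a change above 0 and 5 below. In limma 4 passed unadjusted as higher and 2 as lower, against 12.6% and 8.99% of all genes. The 4 were Ccr2, Cd68, Csf1r (1.77) and Ly6c2 (1.86), and the 2 were Fcgr1 (-0.48) and C1qa (-0.36). None of these overlapped between the groups, and only Ccr2 and Cd68 met the adjusted threshold. Without overlap, AML lay above CML in 5 of the 12 and below in 2, against 13.3% and 17.9% of all genes. The sums of the 12 ran from 4576 to 8329 on the AML arrays and from 1475 to 3633 on the CML arrays. Of 10 dendritic cell markers 0 passed in limma, 1 passed unadjusted as higher in AML and 3 as lower. A change below 0 was seen in 7 of the 10, against 61.7% of all genes. The sums overlapped, from 425 to 536 on the AML arrays and from 525 to 695 on the CML arrays. AML 3 had the lowest granule score of the AML arrays (0.96, beside 2.17 and 1.87) and also the lowest H2-DMa value among them. CML 3 was the highest CML array in both. The other arrays stood in opposite orders. The granule score was higher on AML 1 than on AML 2 and on CML 1 than on CML 2, whereas H2-DMa was lower. Psmb10 was lowest of the AML arrays on AML 1 (8.12, beside 8.76 and 8.35). The part of any of these cells in the changes of H2-DMa and Psmb10 was not tested.

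**Figure D5:**
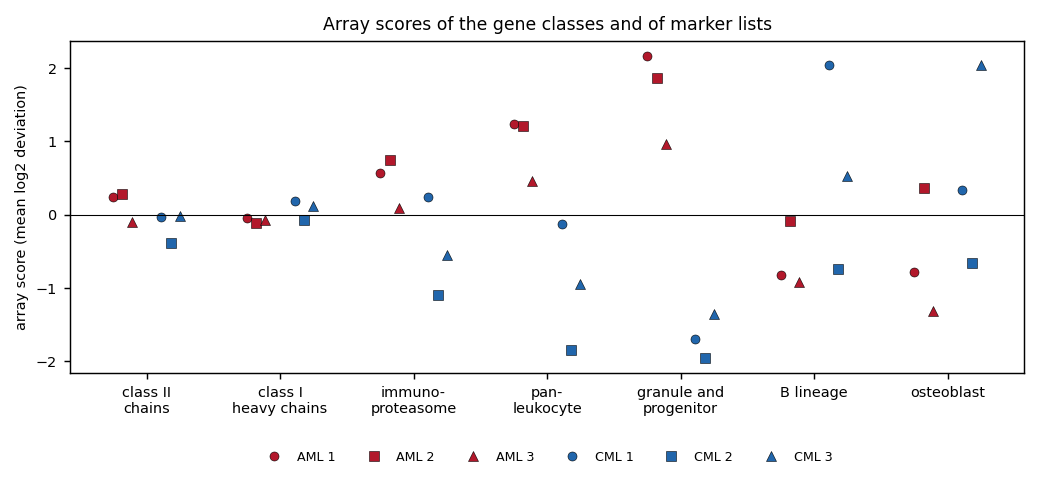
Score of each array, the mean log2 deviation from each gene's mean over the 6 arrays, for the MHC classes, the immunoproteasome and marker lists, with AML in red at the left and CML in blue at the right. Granule and pan-leukocyte scores are higher on all AML arrays, whereas class II and class I scores stay within 0.4 of 0.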

How the data were processed

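Total RNA of primary sorted marrow cells was purified with an RNeasy Plus Micro kit and labelled with a GeneChip WT terminal labelling kit, per the labels' protocols, and each sample was measured on its own array. Limma and lumi are listed in the submitters' processing notes, without versions or steps. The deposited values are probe set intensities on a linear scale, as judged from the values, and the authors' background correction and normalization were not stated in the labels or headers used here. The number of arrays limits the precision.

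Groups follow the titles. Of 39721 probe sets, 23521 carried 1 symbol, 1814 several and 14386 none. Each of 22180 genes was read from its probe set of highest mean. The deposited intensities were taken to log2 (floor 1, which no value reached) and fitted over all genes by lmFit and eBayes, without covariates, from limma 3.58.1 (R 4.3.3). Tests were two-sided, p-values were adjusted by Benjamini-Hochberg, and the threshold was 0.05. Shared and second probe sets were fitted with all probe sets. Standard errors and 95% intervals are moderated. The fit was tested on simulated data. Alternatives were 3 scalings, a filter on dim genes, other probe set rules, trend and robust options, leaving out each array in turn, and the replicate number as a block.

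The genes and lists were chosen with earlier results of these data known. Named genes were those past the threshold, a fixed set of the main chains and processing genes, and genes with an unadjusted p under 0.05 and no overlap. From each list of partner genes, genes past the threshold or otherwise the 2 of lowest p were named. Other genes given by value, such as H2-T24, H2-T10, H2-Q10, H2-M3, H2-DMb1, Psmb5, Csf1r, Ly6c2, Fcgr1 and C1qa, were named after their values were seen. Endothelial, erythroid, and T and NK cell markers had 0 calls in limma among 7, 3 and 8 measured genes. At an unadjusted p under 0.05 there were 1, 0 and 2, against 21.5% of all genes. Plots were made in matplotlib 3.10.9 and Python 3.11.15.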

Additional observations from a re-analysis of the deposited data

How the results depend on the processing

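The 2 calls depended on the scaling and on single arrays. In limma 0 of the 47 genes passed after quantile normalization, after cyclic loess, with a replicate block and with every probe set fitted on its own, where 7, 8, 8 and 9 genes or probe sets passed unadjusted. The same fits called few features over the whole array: 0.419% after quantile normalization, 0.289% after cyclic loess, 0 of 22180 with the block and 0.872% of probe sets, against 1.91%. With trend and robust options 1 passed, H2-DMa, beside 1.40% of all genes. With 1 array left out the count ran from 0 to 2, beside 6 to 14 at an unadjusted p under 0.05. It was 0 without CML 2, CML 3, AML 1 or AML 2, 1 without AML 3 and 2 without CML 1, where Erap1 and H2-Ke6 passed in place of H2-DMa and Psmb10. Over all 22180 genes the fits without CML 3, AML 1 or AML 2 also called 0, so the loss there was not particular to these genes, whereas those without CML 1, CML 2 and AML 3 called 438, 357 and 279. Median centring and the upper 50% of genes by mean level each called 3, H2-Ke6 beside the 2, with 4.04% and 5.07% of all genes tested called and 47 and 24 of the genes described here tested. The class I median of -0.27 moved to -0.13 after median centring and -0.15 after cyclic loess, and ran from -0.29 to -0.16 with 1 array left out. The class II median of -0.04 moved to 0.83 among the upper 50%, which kept 2 class II genes, and ran from -0.09 to 0.05 with 1 array left out. The AML minus CML difference of the class II minus class I score was 0.44, moved to 0.83 among the upper 50% and to 0.24 without H2-DMa, a setting chosen after seeing the data, and ran from 0.35 to 0.56 with 1 array left out. The share of all genes with a change below 0 was 61.7%, and 45.0% after median centring. The changes of H2-DMa and Psmb10 stayed above 0 under the 3 other scalings. In the remaining refits their sign could not turn, since these kept the same values or left out 1 array from groups that did not overlap. Deviations of same-numbered arrays from their group means correlated at 0.24, -0.30 and -0.25, so the numbers were not taken as pairs, and not every array correlated best with its own number. Where no fewer genes or arrays were used, the cause of a lost call was not tested.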

Other observations

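Costimulatory and checkpoint genes, which decide what a T cell does after it meets an MHC molecule, were lower in AML by value in 6 of 7 cases. Of all genes, 61.7% were lower. In limma 0 of the 7 passed the adjusted threshold and 1 passed unadjusted, as lower, against 8.99% of all genes. Pdcd1lg2, which encodes the checkpoint ligand PD-L2, stood at 4.23, 4.43 and 4.16 on the AML arrays, against 4.88, 4.75 and 4.87 on the CML arrays (-0.56 ± 0.14 SE; limma adjusted p = 0.103). Cd274, which encodes PD-L1, stood at 4.27, 4.06 and 4.19 on the AML arrays, against 4.40, 6.42 and 4.68 on the CML arrays, and CML 2 stood far above the rest. The change was -1.0 (limma adjusted p = 0.291), and -0.37 without CML 2. The list's median change was -0.18, against -0.11 for all genes.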
